A study of Mus musculus with 12 samples.

Results

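Subcutaneous tumours of 4T1, a mouse mammary carcinoma line, were compared between mice kept at simulated altitude without a drug and mice given the drug IOX2 at ambient altitude. Each tumour came from its own female BALB/c mouse, and all mice had received 4T1 cells under the skin of the back after 3 days of acclimatization. The HC group lived in a hypobaric chamber set to 3500 m and received vehicle. The MI group lived at ambient altitude, about 1500 m, and received IOX2 at 10 mg/kg. The remaining groups, named where they help to place a value, were HI (3500 m with IOX2 at 10 mg/kg) and MC (ambient altitude with vehicle). Injections in all groups were daily for 10 days from day 9 after inoculation, and tumours were taken on study day 22. How that day relates to inoculation and to the last dose is not given in the sources used here, so the time between the last IOX2 dose and collection is unknown. The 3 days of acclimatization were common to all groups, so they do not by themselves show that HC mice were at altitude before inoculation. MI mice met IOX2 only from day 9 after inoculation. Simulated altitude and housing in the chamber cannot be told apart. The question is where hypoxia from the environment and chemical inhibition of the oxygen sensor PHD2 left different RNA levels. The comparison holds 6 of the 12 libraries, 3 HC and 3 MI, and 14830 of the 35434 genes in the count table, those with at least 10 counts in 3 or more of the 6 libraries.

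Cells sense oxygen through prolyl hydroxylases, encoded by Egln1 (PHD2), Egln2 (PHD1) and Egln3 (PHD3), which use oxygen and 2-oxoglutarate to hydroxylate the alpha subunits of hypoxia-inducible factor (HIF). The von Hippel-Lindau protein (Vhl) then marks hydroxylated HIF for destruction. Low oxygen slows that hydroxylation, and IOX2 blocks it chemically, so that either can let HIF accumulate and switch on genes for glycolysis, vessel growth, pH control and red-cell formation. HIF itself is regulated mainly as a protein, and no protein was analysed here.

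Library totals were 31661685 to 39444390 counts in HC tumours and 37913875 to 40019343 counts in MI tumours. A count of 0 allows up to 3 counts, for counting error only. Levels are in CPM, a gene's counts scaled to the size of its library with TMM factors over the genes tested. Markers of the tumour epithelium were high in all 12 libraries, with Epcam at 168 to 291 FPKM and Krt8 at 455 to 713 FPKM, so the labelled tissue was present. Libraries of the MI group stood apart in different ways. MI1 held B-cell genes that the other 5 tumours almost lacked: Ms4a1 (CD20) had 1096 counts in MI1 and at most 6 counts in the other HC and MI libraries. MI3 had the highest mitochondrial share, 2.96% of its counts, against 1.70% and 2.14% in MI2 and MI1 and 1.84% to 2.09% in HC libraries. In bulk tumour RNA, fewer cells of a type and less RNA per cell cannot be told apart.

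The number of genes called depended on the tool. Over the 14830 genes, edgeR's quasi-likelihood test with Benjamini-Hochberg adjustment called 0 genes (0%), and its lowest adjusted p was 0.145. At an unadjusted p under 0.05 it listed 2192 genes (14.8%), 878 with higher values in HC (5.92%) and 1314 with lower values in HC (8.86%). DESeq2 called 304 of the 14526 genes it adjusted (2.09%), 124 higher in HC (0.854%) and 180 lower in HC (1.24%), while limma-voom called 0. The edgeR count depended on MI2: without that library 407 genes were called, 61 higher and 346 lower in HC. The median log2 difference (HC minus MI, as everywhere below) over all genes was -0.015, and 47.5% of genes had a difference above 0. In 2363 genes (15.9%) the 3 HC values and the 3 MI values did not overlap, with HC above in 1346 (9.08%) and below in 1017 (6.86%). An exact test of 3 tumours against 3 cannot give a p below 0.1, so the genes named below are described by their values and adjusted p, with edgeR as the test unless DESeq2 is named. Members of each list are read against these shares of all genes. Where single libraries moved the median of a list, its lowest and highest values with 1 library left out are given with it.

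The oxygen sensor genes overlapped between the groups. Egln1, which encodes PHD2, the target of IOX2, was at 127, 182 and 176 CPM in HC tumours, against 154, 187 and 144 CPM in MI tumours, a log2 difference of 0.0046 with an SE of 0.17 (adjusted p = 0.992). Egln2 was at 50.6, 48.6 and 52.6 CPM in HC tumours, against 51.2, 57.9 and 48.4 CPM in MI tumours, and its ranges overlapped too (log2 difference -0.053). Egln3, a sensor gene that is itself a HIF target, was at 119, 235 and 182 CPM in HC tumours, against 187, 251 and 212 CPM in MI tumours. HC1 had the lowest Egln3 value of the 6 tumours, the other ranges overlapped, and the log2 difference was -0.28 with an SE of 0.22 (adjusted p = 0.538). Set against the same MC tumours, Egln3 differed by -0.44 in HC and by -0.16 in MI on the log2 scale. Vhl was at 23.7, 26.0 and 25.1 CPM in HC tumours, against 23.8, 28.0 and 24.2 CPM in MI tumours.

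Among the HIF subunits, Hif1a had the lowest p. Hif1a was at 237, 313 and 263 CPM in HC tumours, against 435, 262 and 731 CPM in MI tumours. MI3 was far above the other 5 tumours and MI2 lay within the HC range, so that the log2 difference of -0.81 with an SE of 0.28 (adjusted p = 0.276) became -0.36 without MI3. MI3 was also the library with the highest mitochondrial share, and the part of that in its Hif1a value was not tested. Epas1, which encodes the HIF-2 alpha subunit typical of endothelium, was at 61.3, 40.3 and 38.6 CPM in HC tumours, against 52.5, 31.97 and 42.2 CPM in MI tumours (log2 difference 0.15 with an SE of 0.21). Its sign turned without HC1 and without MI2. Eloc, encoding elongin C of the VHL ubiquitin ligase, was likewise highest in MI3, with 67.2, 71.8 and 63.1 CPM in HC tumours, against 85.5, 55.0 and 152 CPM in MI tumours. Of the 13 oxygen-sensing genes tested, 5 had higher and 8 lower values in HC, the median difference was -0.023 (-0.061 without HC3 and 0.029 without MI2), and 1 did not overlap between groups (7.69%, against 15.9% of all genes): Elob, encoding elongin B, at 90.9, 94.8 and 88.1 CPM in HC tumours, against 79.6, 86.8 and 80.6 CPM in MI tumours. Hif3a fell short of the count minimum, and Epo, the gene of erythropoietin, had 0 counts in all 12 libraries, so at most 3 counts in each.

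HIF target genes outside glycolysis did not separate altitude from IOX2. Of 27 tested, 13 had higher and 14 lower values in HC, with a median log2 difference of -0.017 (-0.095 without HC2 and 0.19 without HC1) and a range of -0.37 to 0.47. None reached an unadjusted p under 0.05 and in none were the groups apart, where 14.8% and 15.9% of all genes did so. Vegfa, the main growth factor for vessels, was at 43.4, 107 and 53.7 CPM in HC tumours, against 102, 84.5 and 77.5 CPM in MI tumours. HC2 was the highest of the 6 and HC1 the lowest, and the difference was -0.37 with an SE of 0.32 (adjusted p = 0.577). Car9, the carbonic anhydrase widely used as a hypoxia marker, was at 62.9, 119.7 and 119 CPM in HC tumours, against 70.9, 128 and 68.9 CPM in MI tumours (log2 difference 0.17 with an SE of 0.28). Angptl4, a secreted inhibitor of lipoprotein lipase, was at 55.5, 53.9 and 37.6 CPM in HC tumours, against 44.8, 31.1 and 30.9 CPM in MI tumours, and every one of these 6 values exceeded the MC tumours, at 24.5, 21.7 and 19.3 CPM. Its difference from MC was 1.16 in HC and 0.71 in MI on the log2 scale, and that between HC and MI was 0.46 with an SE of 0.28. Ddit4, a stress-induced brake on mTORC1, was at 163, 176 and 182 CPM in HC tumours, against 142, 167 and 147 CPM in MI tumours, all below the MC tumours, at 186, 217 and 216 CPM. P4ha2, a collagen prolyl hydroxylase, and Car12, another carbonic anhydrase, had overlapping groups and log2 differences of -0.16 and 0.28.

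Glycolysis genes showed the same overlap. Of the 18 tested, 12 had higher and 6 lower values in HC (median 0.19), none at an unadjusted p under 0.05 and none with the groups apart. The spread between mice was wide: the list score, which averages over members how far log2 CPM lies from the gene's own mean of 12 libraries, was -0.43, 0.18 and 0.13 in HC1 to HC3, against -0.12, 0.092 and -0.37 in MI1 to MI3. HC1 and MI3 were the low libraries of their groups. Eno1, the enolase of glycolysis, was at 809, 1095 and 1185 CPM in HC tumours, against 857, 1010.4 and 741 CPM in MI tumours (adjusted p = 0.437). The median ran from 0.077 without MI3 to 0.36 without HC1. Other enzymes that depend on 2-oxoglutarate and oxygen (histone demethylases of the Kdm family, Tet enzymes, collagen hydroxylases) were tested as 25 genes, of which 9 had higher and 16 lower values in HC (median -0.059, or -0.085 without MI1 and 0.020 without MI2) and none was apart. Kdm7a, a histone demethylase, had the smallest p of these, with 43.0, 32.6 and 41.9 CPM in HC tumours, against 51.5, 34.2 and 94.0 CPM in MI tumours, and MI3 again stood above the rest.

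Red-cell genes had higher values in HC and in MI tumours than in MC tumours, and the MI values were above most HC values. The summed level of the 13 listed genes, untested ones included, was 57.0 to 106 CPM in HC tumours and 89.4 to 124 CPM in MI tumours, against 19.9 to 21.5 CPM in MC tumours. Hbb-bs, an adult beta globin, was at 56.5, 29.9 and 29.7 CPM in HC tumours, against 61.7, 56.1 and 46.6 CPM in MI tumours, and at 11.3, 11.3 and 10.9 CPM in MC tumours. HC1 overlapped the MI range, HC2 and HC3 lay below it, and all 6 were above MC. The log2 difference from MC was 1.79 in HC and 2.30 in MI. Hba-a1, an alpha globin, was at 28.7, 15.6 and 16.8 CPM in HC tumours, against 33.3, 30.0 and 24.0 CPM in MI tumours, and at 4.95, 5.14 and 5.11 CPM in MC tumours.

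**Figure D1:**
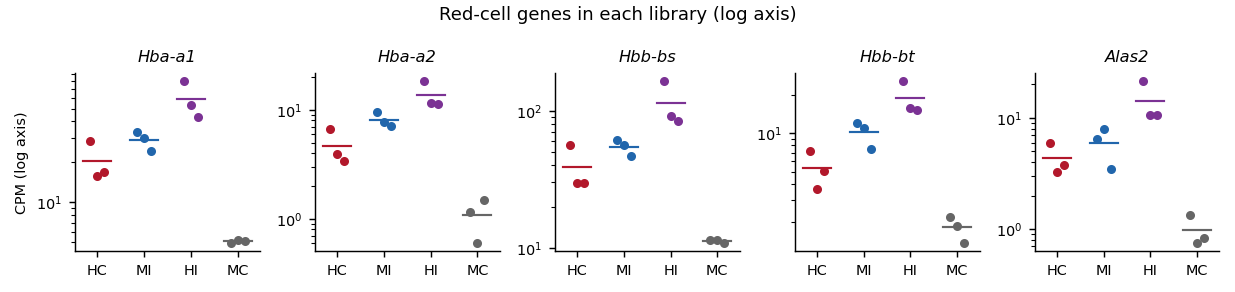
CPM on a log axis for the 5 red-cell genes tested, in 3 tumours each (points; the line is the group mean) of HC, MI, HI and MC. MC tumours are lowest in every panel, HC and MI tumours lie between, and HI tumours, which had altitude and IOX2 together, are highest.

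Between HC and MI directly, all 5 red-cell genes had lower values in HC, with differences from -0.93 (Hbb-bt, the second adult beta globin) to -0.46 (Alas2, the erythroid enzyme that starts heme synthesis). Hbb-bt was at 7.26, 3.65 and 5.07 CPM in HC tumours, against 11.9, 11.0 and 7.48 CPM in MI tumours, the groups did not overlap, and the adjusted p was 0.263. Hba-a2, the other alpha globin, was at 6.70, 3.90 and 3.38 CPM in HC tumours, against 9.56, 7.73 and 7.13 CPM in MI tumours, also without overlap (adjusted p = 0.308). Groups were apart in 2 of the 5 genes (40%), against 6.86% of all genes in that direction. Hba-a1 and Hba-a2, and likewise Hbb-bs and Hbb-bt, are near-identical copies, so the split of reads within each pair is uncertain. The median of the 5 differences was -0.52 and ran from -0.88 without HC1 to -0.36 without HC2. All 5 stayed below 0 whichever library was left out, though the 2 apart could hardly have turned. The erythroblast genes Klf1, Gata1, Ahsp, Epb42, Hemgn and Slc4a1 were all below the count minimum.

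The 10 genes with the smallest p and higher values in HC included Odc1 of polyamine synthesis and Shmt1 and Shmt2 of serine use. None of the 10 passed edgeR's threshold, with adjusted p of 0.145 to 0.213, whereas DESeq2 called each of them. Odc1, ornithine decarboxylase, which makes the first polyamine, was at 346, 320.2 and 356 CPM in HC tumours, against 219, 236 and 196 CPM in MI tumours. The groups were well apart, and MC tumours, at 238, 235 and 225 CPM, lay beside the MI tumours. The log2 difference between HC and MI was 0.65 with an SE of 0.094 (adjusted p = 0.145; DESeq2 adjusted p = 5.89e-07). Shmt1 and Shmt2, the cytosolic and mitochondrial enzymes that take a one-carbon unit from serine, had the same order of groups. Shmt1 was at 40.7, 41.5 and 39.7 CPM in HC tumours, against 29.5, 31.4 and 26.7 CPM in MI tumours. Shmt2 was at 153, 149 and 145 CPM in HC tumours, against 112, 114 and 101 CPM in MI tumours. Their log2 differences were 0.48 and 0.46, and against MC they differed by 0.45 and 0.46 in HC but by -0.031 and 0.0014 in MI. Nadsyn1, which completes NAD synthesis, was at 18.8, 16.4 and 19.0 CPM in HC tumours, against 10.9, 12.0 and 10.9 CPM in MI tumours, with MC tumours between the groups at 14.5, 15.6 and 15.6 CPM.

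Nptx1, a secreted pentraxin known from neurons, had the largest of these 10 differences, at 72.1, 51.6 and 71.1 CPM in HC tumours, against 14.1, 26.9 and 22.2 CPM in MI tumours (log2 1.62 with an SE of 0.26). MC tumours were again between, at 40.9, 31.7 and 35.3 CPM, so that Nptx1 differed from MC by 0.85 in HC and by -0.77 in MI. Syne3, a nesprin of the nuclear envelope, was at 65.2, 49.6 and 55.0 CPM in HC tumours, against 28.9, 33.0 and 27.6 CPM in MI tumours. Kcnn4, a calcium-activated potassium channel, was at 190.4, 161 and 188 CPM in HC tumours, against 135, 142 and 127 CPM in MI tumours. Ercc1, a DNA-repair endonuclease subunit, was at 194, 179.7 and 201 CPM in HC tumours, against 142, 156 and 134 CPM in MI tumours. Mrps6, a mitochondrial ribosomal protein, and Dnph1, which hydrolyses modified deoxynucleotides, closed the list with log2 differences of 0.59 and 0.50. In all 10 genes the 3 HC values exceeded the 3 MI values, which the rule for naming them required.

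The 10 genes with the smallest p and lower values in HC included Vash1, Cd93 and Mcam, which endothelium expresses. Their adjusted p again ran from 0.145 to 0.213, and DESeq2 called all 10. Vash1, a vasohibin made by endothelium that restrains vessel growth, was at 22.2, 23.6 and 22.1 CPM in HC tumours, against 37.0, 31.3 and 32.7 CPM in MI tumours, with MC tumours at 32.8, 32.3 and 37.1 CPM. HC tumours were thus below both, with a log2 difference of -0.57 with an SE of 0.090 from MI (adjusted p = 0.145; DESeq2 adjusted p = 1.85e-05), -0.59 from MC in HC and -0.017 from MC in MI. HI tumours, also at altitude, were lower still, at 19.2, 19.5 and 20.9 CPM. Cd93, an endothelial adhesion receptor, was at 71.8, 63.5 and 73.0 CPM in HC tumours, against 110.2, 85.1 and 104 CPM in MI tumours. For Cd93, HI tumours were at 56.0, 62.2 and 57.9 CPM, below the HC tumours. Mcam (CD146), found on endothelium and pericytes, was at 80.1, 91.7 and 94.6 CPM in HC tumours, against 138, 123 and 114 CPM in MI tumours. In each the MC tumours were at the MI level. Thbs1, thrombospondin 1, a matrix protein that inhibits vessel growth, was at 376, 501 and 529.6 CPM in HC tumours, against 886, 733 and 935 CPM in MI tumours, a log2 difference of -0.86 with an SE of 0.16.

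Lef1, a transcription factor of Wnt signalling, showed the widest gap of these 10. It was at 0.984, 1.19 and 1.30 CPM in HC tumours, against 9.17, 5.01 and 5.20 CPM in MI tumours, and at 3.87, 5.44 and 6.30 CPM in MC tumours. The log2 difference was -2.47 with an SE of 0.42 (adjusted p = 0.204), HC tumours lying below all MI and MC tumours. Gpr183, an oxysterol receptor that guides lymphocytes and dendritic cells, was at 3.07, 3.60 and 2.91 CPM in HC tumours, against 7.57, 5.13 and 6.44 CPM in MI tumours. For Gpr183, HI tumours were above the HC tumours, at 5.12, 6.39 and 6.58 CPM. Il33, an alarmin cytokine of stroma and endothelium, was at 11.7, 13.6 and 9.09 CPM in HC tumours, against 35.0, 19.1 and 31.9 CPM in MI tumours. Ccnd2, cyclin D2, was at 57.3, 66.0 and 60.7 CPM in HC tumours, against 97.0, 96.5 and 77.1 CPM in MI tumours. In Phldb2, which links adhesion sites to microtubules, and Ccdc71l all MC tumours lay between the groups. They differed from MC by -0.35 and -0.19 in HC and by 0.40 and 0.31 in MI. Il33, Lef1 and Thbs1 differed from MC by -0.84, -2.16 and -0.61 in HC. In MI they differed from MC by 0.49, 0.31 and 0.25, with some MC tumours inside the MI range.

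**Figure D2:**
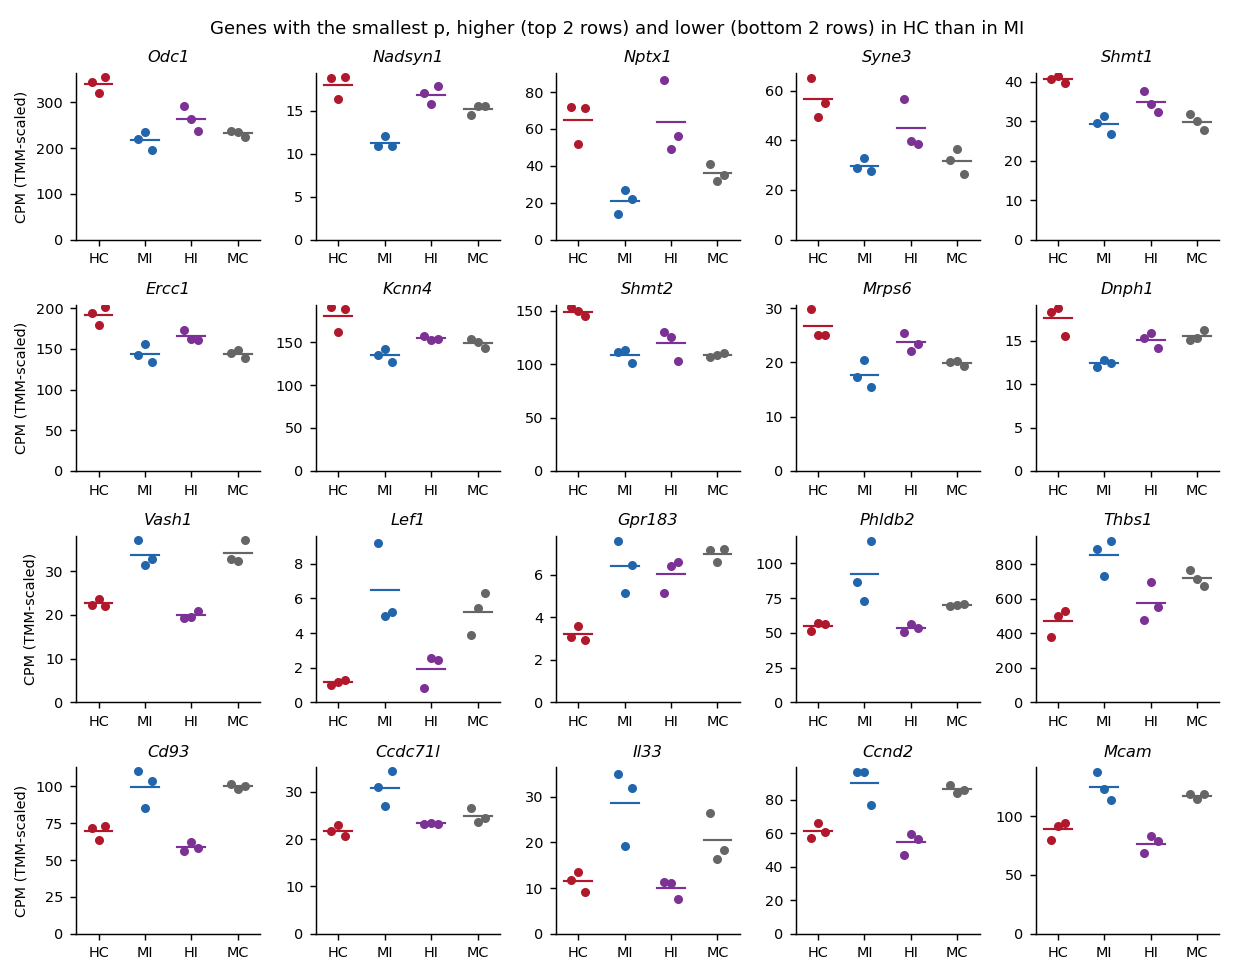
CPM in each tumour (points) with the group mean (line) for the 10 genes with the smallest p that were higher in HC (top 2 rows) and the 10 that were lower (bottom 2 rows), in HC, MI, HI and MC, 3 tumours each. In each panel the 3 HC and 3 MI points do not overlap, for example 320.2 to 356 CPM in HC against 196 to 236 CPM in MI for Odc1.

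**Figure D3:**
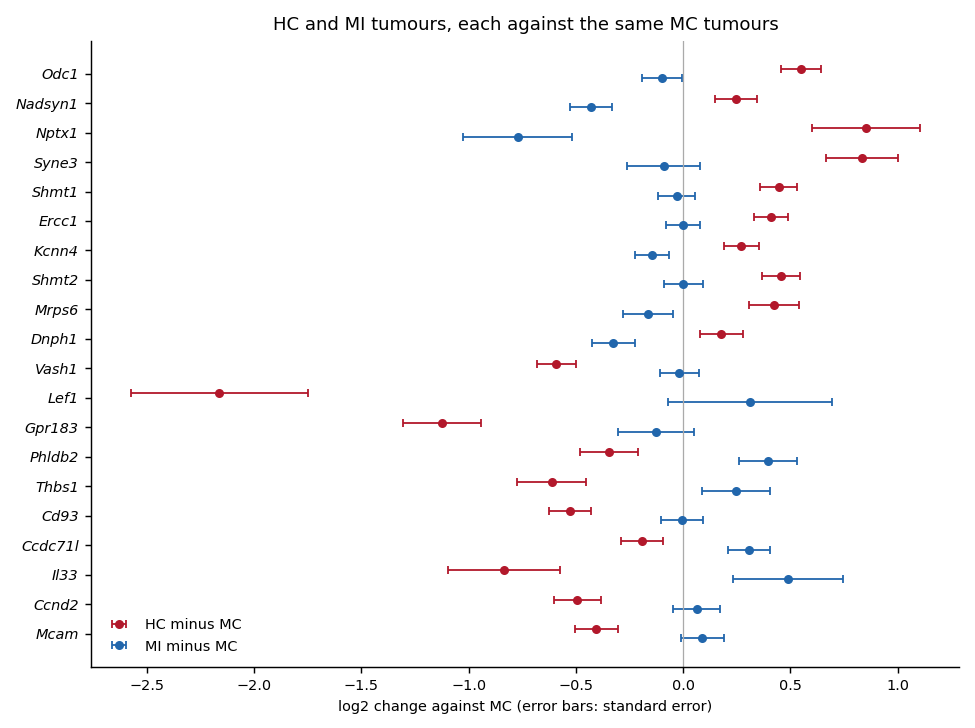
Log2 difference from the MC tumours for the same 20 genes, HC minus MC and MI minus MC, with standard errors from the edgeR fit of 12 libraries. The 2 sets share the MC tumours, so only the gap between the points of a gene is the comparison of HC with MI. For Shmt2 the points stand at 0.46 and 0.0014, and for Nptx1 at 0.85 and -0.77.

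HIF binds the core letters ACGTG or GCGTG, and clock and MYC-family factors bind the E-box CACGTG, which contains ACGTG. Both were searched on both strands from 250 bases before to 50 bases after the start of each gene in RefSeq promoters of GRCm38.p6, an older build than that of the counts. Among tested genes, 11557 had a promoter there, and 60.7% held ACGTG or GCGTG and 9.87% held CACGTG. Of the 10 leading genes higher in HC, 7 of the 9 with a promoter held the core letters (77.8%) and 2 held CACGTG (22.2%). Of the 10 lower in HC, 1 of 7 held the core letters (14.3%) and none held CACGTG. The HIF target list held them in 16 of 19 promoters (84.2%) although its genes did not separate the groups. These shares describe letters in a window and no binding. The 250 bases before the start are printed for 3 leading genes higher in HC and for Vash1, the leading gene lower in HC. They are also printed for the clock gene Ciart, described with the hormone-responsive genes below, and for Egln3, the sensor gene that HIF induces. The 3 are not those with the smallest p: Dnph1 and Kcnn4 are the 2 of the 10 that held CACGTG. Nadsyn1 and Ercc1, also among the 10, held neither motif and are not printed. The printed stretches thus do not represent the 10 and give no contrast with Vash1. Capitals mark the searched letters on either strand, and each sequence runs 5′ to 3′ on the strand of its gene.

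Odc1 (chr12:17544623-17544872, plus strand): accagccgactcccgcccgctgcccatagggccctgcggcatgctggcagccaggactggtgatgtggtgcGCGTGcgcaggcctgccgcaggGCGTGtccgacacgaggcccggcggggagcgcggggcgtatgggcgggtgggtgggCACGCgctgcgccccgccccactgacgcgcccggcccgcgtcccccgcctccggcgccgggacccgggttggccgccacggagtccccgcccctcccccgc

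Dnph1 (chr17:46496539-46496788, plus strand): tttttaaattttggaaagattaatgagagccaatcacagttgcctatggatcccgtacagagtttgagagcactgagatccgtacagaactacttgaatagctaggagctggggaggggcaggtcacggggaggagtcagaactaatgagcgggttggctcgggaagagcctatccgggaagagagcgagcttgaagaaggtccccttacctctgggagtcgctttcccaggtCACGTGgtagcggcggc

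Kcnn4 (chr7:24370013-24370262, plus strand): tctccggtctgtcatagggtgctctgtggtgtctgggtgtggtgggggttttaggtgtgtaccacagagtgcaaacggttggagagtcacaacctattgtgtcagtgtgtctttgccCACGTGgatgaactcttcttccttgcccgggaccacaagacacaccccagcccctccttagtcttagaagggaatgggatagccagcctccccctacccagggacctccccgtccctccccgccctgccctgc

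Vash1 (chr12:86678450-86678699, plus strand): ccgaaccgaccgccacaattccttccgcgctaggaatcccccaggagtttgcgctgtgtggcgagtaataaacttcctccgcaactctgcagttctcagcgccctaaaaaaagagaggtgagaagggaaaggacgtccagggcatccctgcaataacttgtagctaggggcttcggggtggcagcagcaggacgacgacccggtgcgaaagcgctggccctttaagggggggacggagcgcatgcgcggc

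Ciart (chr3:95882229-95882478, minus strand): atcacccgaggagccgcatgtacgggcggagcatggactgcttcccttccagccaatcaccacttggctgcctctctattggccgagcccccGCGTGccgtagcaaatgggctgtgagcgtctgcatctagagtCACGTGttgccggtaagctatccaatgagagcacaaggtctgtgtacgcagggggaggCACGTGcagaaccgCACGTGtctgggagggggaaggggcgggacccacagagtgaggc

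Egln3 (chr12:54203875-54204124, minus strand): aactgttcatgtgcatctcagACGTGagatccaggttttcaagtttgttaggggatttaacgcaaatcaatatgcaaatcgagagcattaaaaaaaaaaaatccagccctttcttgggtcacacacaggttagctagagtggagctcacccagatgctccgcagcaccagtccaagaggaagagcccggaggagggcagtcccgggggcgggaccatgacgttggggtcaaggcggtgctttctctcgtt

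The Odc1 stretch holds the core letters 3 times, Dnph1 and Kcnn4 hold a single CACGTG each, Vash1 holds neither motif, Ciart holds CACGTG 3 times, and Egln3 holds ACGTG once.

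Most vessel genes had lower values in HC, by small amounts. Of 25 endothelial genes, 22 had lower values in HC and 3 higher, with a median difference of -0.21. Groups were apart in 4 with HC lower and 1 with HC higher (20% in all, against 15.9% of all genes). DESeq2 called 3 lower and 1 higher, where it called 1.24% and 0.854% of all genes it adjusted. Vash1, Cd93 and Mcam, chosen above for small p and groups apart, are among the 4 and are the 3 that DESeq2 called lower. They are not a further result here. The gene apart with HC higher was Vwf, von Willebrand factor of the blood-clotting system, at 36.8, 22.0 and 34.3 CPM in HC tumours, against 19.2, 13.4 and 17.1 CPM in MI tumours. HC tumours lay above all MI and MC tumours, with MC at 17.2, 12.3 and 19.9 CPM (log2 difference 0.90 with an SE of 0.24, adjusted p = 0.236). MI1 had the highest endothelial score, 0.44, 0.017 and 0.20 in MI1 to MI3 against 0.16, -0.15 and 0.053 for HC1 to HC3, and without MI1 the median was -0.085.

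Genes of sprouting (tip) cells, which lead new vessels, had lower values in HC in 10 of 11 (median -0.37). In 4 the groups were apart, all with HC lower (36.4%, against 6.86% of all genes in that direction). Dll4, the Notch ligand of tip cells, was at 16.7, 18.6 and 16.03 CPM in HC tumours, against 23.4, 22.8 and 22.1 CPM in MI tumours, and at 23.2, 23.4 and 23.2 CPM in MC tumours. HC was the low group, with a log2 difference of -0.41 with an SE of 0.099 from MI (adjusted p = 0.216; DESeq2 adjusted p = 0.00985). Nid2, a nidogen of vessel basement membrane, was at 33.1, 36.7 and 49.8 CPM in HC tumours, against 69.2, 50.1 and 63.8 CPM in MI tumours. Esm1, endocan, secreted by tip cells, was at 6.06, 7.94 and 7.25 CPM in HC tumours, against 8.41, 11.0 and 15.3 CPM in MI tumours. Cxcr4, a chemokine receptor shared with leukocytes, was at 20.5, 21.8 and 18.0 CPM in HC tumours, against 35.7, 22.2 and 24.1 CPM in MI tumours. All 4 sets of HC values lay below the MI values. Without MI1 the median of the list was -0.21, with 10 of the 11 genes still lower in HC.

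Downstream of Dll4, the Notch target Hey1 was at 1.66, 1.17 and 1.77 CPM in HC tumours, against 3.18, 3.91 and 3.81 CPM in MI tumours and at 3.42, 2.67 and 4.25 CPM in MC tumours, a log2 difference of -1.25 with an SE of 0.27 between HC and MI (adjusted p = 0.213; DESeq2 adjusted p = 0.00239). Hes1, another Notch target, was at 50.9, 61.2 and 58.2 CPM in HC tumours, against 63.3, 71.9 and 107 CPM in MI tumours. Nrp1, a co-receptor for VEGF, was at 93.7, 65.6 and 66.3 CPM in HC tumours, against 109, 116 and 203 CPM in MI tumours. HC was below MI in each of the 3 genes without overlap. Of the 15 VEGF and Notch genes, 10 had lower and 5 higher values in HC (median -0.085, or -0.10 without HC3 and -0.047 without HC2). In 4 the groups were apart (26.7%, against 15.9% of all genes), 3 of them lower in HC. Dll1, another Notch ligand, had a difference of the opposite sign with overlapping groups (log2 difference 0.35).

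BMP signalling, which endothelium also uses, had the same direction in 9 of 11 genes (median -0.19, or -0.23 without HC2 and -0.094 without HC1). Bmp2, the ligand, was at 4.15, 6.59 and 4.57 CPM in HC tumours, against 17.0, 10.2 and 12.7 CPM in MI tumours, with MC tumours at 8.84, 9.22 and 11.9 CPM (log2 difference -1.38 with an SE of 0.33, adjusted p = 0.216; DESeq2 adjusted p = 0.00674). Smad6, the inhibitory Smad that BMP induces, was at 6.83, 7.81 and 7.69 CPM in HC tumours, against 8.97, 11.4 and 11.8 CPM in MI tumours. Neither overlapped, and HC was the low group also against MC (-0.97 and -0.62, where MI stood at 0.41 and -0.095). Bmp6, another ligand, had the opposite sign with overlapping groups, at 1.14, 0.380 and 0.805 CPM in HC tumours, against 0.483, 0.535 and 0.433 CPM in MI tumours (log2 difference 0.67, or 0.29 without HC1). Mural cells, the pericytes and smooth muscle around vessels, had lower values in HC in 10 of 12 genes (median -0.33) but none apart. Rgs5, a pericyte marker, was at 85.2, 43.8 and 48.1 CPM in HC tumours, against 101, 74.9 and 146 CPM in MI tumours, and HC1 lay inside the MI range. The mural median ran from -0.45 without MI2 to -0.13 without MI1.

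Genes induced by glucocorticoids, the adrenal stress hormones, had higher values in HC. Of 11 tested, 9 were higher (median 0.48, or 0.32 without HC3 and 0.58 without HC2), 5 without overlap (45.5%, against 9.08% of all genes with HC higher). DESeq2 called 3, all higher in HC, a direction in which it called 0.854% of all genes it adjusted. Fkbp5, a co-chaperone that limits the receptor and is a standard readout of the hormone, was at 307, 192 and 275 CPM in HC tumours, against 170.2, 161 and 162 CPM in MI tumours, with MC tumours at 140.0, 169 and 135 CPM. HC2 was the lowest HC tumour and still lay above all MI tumours (log2 difference 0.65 with an SE of 0.16, adjusted p = 0.216; DESeq2 adjusted p = 0.0148). Hsd11b1, the enzyme that regenerates active hormone inside cells, was at 16.1, 9.89 and 8.34 CPM in HC tumours, against 6.25, 3.57 and 3.81 CPM in MI tumours (log2 difference 1.33 with an SE of 0.31). Zbtb16 (PLZF), a transcription factor strongly induced by the hormone, was at 8.18, 1.29 and 1.87 CPM in HC tumours, against 0.508, 0.340 and 0.289 CPM in MI tumours, and at 0.151, 0.151 and 0.0759 CPM in MC tumours. HC1 had by far the most Zbtb16, and the log2 difference of 3.30 ran from 2.05 to 3.71 as single libraries were left out. Tsc22d3 (GILZ), an anti-inflammatory mediator of the hormone, was at 94.9, 53.4 and 84.9 CPM in HC tumours, against 59.8, 48.6 and 55.6 CPM in MI tumours, with HC2 inside the MI range. Fat cells express Hsd11b1 too, and HC1 and HC2 held the most fat-cell RNA (below). Its part in the Hsd11b1 values was not tested.

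The circadian clock, a loop of transcription factors that hormones can reset, had higher values in HC in 13 of 18 genes, with a median of only 0.094 (0.067 without MI1 and 0.16 without HC1). Groups were apart in 2 genes (11.1%, against 15.9% of all genes). The 2 were Ciart and Per1. Ciart, a clock repressor, was at 4.24, 6.59 and 6.78 CPM in HC tumours, against 2.49, 3.82 and 1.82 CPM in MI tumours. Per1, a clock gene that glucocorticoids also induce, was at 49.96, 36.9 and 61.4 CPM in HC tumours, against 35.9, 32.3 and 25.7 CPM in MI tumours. The adjusted p of each was 0.261. Hlf, a clock output factor, had low levels of 0.246, 0.203 and 0.390 CPM in HC tumours, against 0.203, 1.34 and 1.13 CPM in MI tumours, and Cry2, a clock repressor, overlapped with a difference of 0.38. The time of day of collection is not given in the labels.

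**Figure D4:**
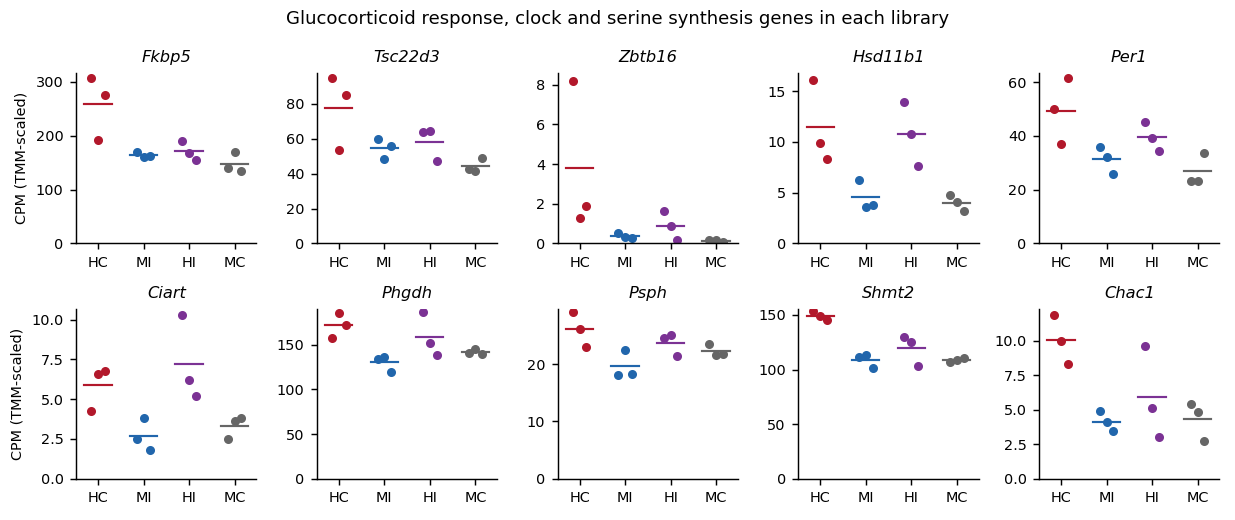
CPM in each tumour (points) with the group mean (line) for 4 glucocorticoid-responsive genes, the clock genes Per1 and Ciart, and 4 genes of serine synthesis and the ATF4 response, in HC, MI, HI and MC (3 tumours each). HC points lie above all MI points in every panel but Tsc22d3, where HC2 is inside the MI range.

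Immediate-early genes, the first to respond to growth and stress signals, had higher values in HC in 10 of 15 (median 0.16, or 0.090 without HC3 and 0.18 without HC1). Groups were apart in 4 with HC higher and 1 with HC lower (33.3% in all, against 15.9% of all genes). Fosl1 (FRA-1), an AP-1 subunit linked to invasive breast cancer cells, was at 73.7, 64.4 and 62.6 CPM in HC tumours, against 25.9, 35.6 and 25.0 CPM in MI tumours, and at 32.8, 28.4 and 21.7 CPM in MC tumours. The 3 HC tumours stood above all MI and MC tumours (log2 difference 1.21 with an SE of 0.26, adjusted p = 0.213; DESeq2 adjusted p = 0.00239). Fosb was at 9.62, 8.49 and 16.8 CPM in HC tumours, against 6.30, 6.69 and 6.99 CPM in MI tumours. Egr1 was at 75.8, 65.9 and 59.8 CPM in HC tumours, against 54.1, 39.1 and 49.0 CPM in MI tumours. Both were apart with HC higher. Fos, the founding member, was at 28.5, 27.9 and 31.7 CPM in HC tumours, against 31.97, 32.6 and 43.2 CPM in MI tumours, and its groups did not overlap either.

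The ATF4 response, which cells mount when amino acids run short, and the serine synthesis it drives had higher values in HC in 15 of 18 genes (median 0.38). Groups were apart in 8 with HC higher and 1 with HC lower (50% in all, against 15.9% of all genes). DESeq2 called 3, all higher in HC, a direction in which it called 0.854% of all genes it adjusted. Shmt2, chosen above for a small p and groups apart, is 1 of the 8 and 1 of the 3. Phgdh, the first enzyme of serine synthesis, was at 158, 186 and 172 CPM in HC tumours, against 134, 136 and 119 CPM in MI tumours. Psph, the last, was at 29.2, 26.2 and 22.96 CPM in HC tumours, against 18.2, 22.4 and 18.2 CPM in MI tumours. Chac1, which degrades glutathione and is a classic ATF4 target, was at 11.9, 9.94 and 8.31 CPM in HC tumours, against 4.90, 4.08 and 3.44 CPM in MI tumours, with MC tumours at 5.40, 4.81 and 2.73 CPM. Chac1 had a log2 difference of 1.28 with an SE of 0.38 (adjusted p = 0.261; DESeq2 adjusted p = 0.0453). Phgdh, Psph and Chac1 differed from MC by 0.28, 0.23 and 1.217 in HC and by -0.12, -0.19 and -0.058 in MI. The median of the list ran from 0.22 without HC2 to 0.45 without HC1.

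Ribosomal and nuclear respiratory-chain genes had slightly higher values in HC. All 24 cytosolic ribosomal protein genes had higher values in HC (median 0.22), 13 without overlap (54.2%, against 9.08% of all genes in that direction). The highest difference was 0.33 for Rps2, at 159.7, 162 and 163 CPM in HC tumours, against 125, 136 and 126 CPM in MI tumours. The score was -0.0095, 0.030 and 0.15 in HC1 to HC3, against -0.30, -0.0083 and -0.19 in MI1 to MI3: MI1 and MI3 were low, while MI2 lay within the HC range. All 24 stayed higher in HC whichever library was left out, though the 13 apart could hardly have turned. These genes have many near-identical pseudogenes, so their counts are uncertain. All 23 nuclear genes of the respiratory chain also had higher values in HC (median 0.12), 8 apart (34.8%, against 9.08% of all genes in that direction). Sdhb, a subunit of succinate dehydrogenase, was at 91.9, 90.2 and 75.9 CPM in HC tumours, against 75.7, 73.2 and 69.5 CPM in MI tumours. Uqcrc1, of complex III, was at 237, 252 and 237 CPM in HC tumours, against 217, 219.7 and 203 CPM in MI tumours. The 13 genes of the mitochondrial genome did the reverse in 10 of 13 (median -0.37), which rested on MI3: COX2, a subunit of cytochrome oxidase, was at 146, 149 and 162 CPM in HC tumours, against 215, 108 and 474 CPM in MI tumours, and the list's median was 0.042 without MI3. Cell-division genes had higher values in HC in 28 of 34 (median 0.14). Groups were apart in 2 with HC higher and 1 with HC lower (8.82% in all, against 15.9% of all genes). The 34 differences ran from -0.73 to 0.33, and DESeq2 called 0 higher and 1 lower in HC. That 1 gene is Ccnd2, chosen above for a small p and groups apart, and is not a further result here. Mcm6 and Mcm7, parts of the replication helicase, differed by 0.27 and 0.25, and without HC2 the median was 0.018, with 17 of 34 higher.

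Most genes of lymphoid and antigen-presenting cells had lower values in HC than in MI, in part through MI1 alone. Of 18 T- and natural killer-cell genes, 17 were lower in HC (median -0.68), 6 apart (33.3%, against 6.86% of all genes in that direction). Cd4, the helper T-cell co-receptor, was at 1.14, 2.21 and 1.87 CPM in HC tumours, against 15.2, 3.09 and 4.16 CPM in MI tumours, and at 3.19, 3.55 and 5.18 CPM in MC tumours. MI1, the tumour with B-cell genes, held the most, but HC was below every MI and MC tumour (adjusted p = 0.236; DESeq2 adjusted p = 0.0177), and the log2 difference of -2.10 was -1.05 without MI1. Foxp3, the factor of regulatory T cells, was at 0.492, 0.279 and 0.234 CPM in HC tumours, against 3.35, 1.07 and 0.635 CPM in MI tumours, a log2 difference of -2.34, or -1.36 without MI1. Ifng, interferon gamma, was at 1.199, 1.45 and 1.32 CPM in HC tumours, against 2.41, 2.41 and 1.65 CPM in MI tumours. Klrk1 (NKG2D), an activating receptor of killer cells, was at 5.29, 4.39 and 3.84 CPM in HC tumours, against 7.78, 8.27 and 6.38 CPM in MI tumours. Without MI1 the median of the list was -0.21, with 14 of 18 genes lower in HC. The summed level of the list overlapped, at 116 to 146 CPM in HC tumours, against 124 to 279 CPM in MI tumours. MC tumours were at 110 to 114 CPM, below all HC tumours.

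Dendritic-cell genes had lower values in HC in 9 of 11 (median -1.42, or -1.56 without MI2 and -1.04 without MI1). Groups were apart in 5, all with HC lower (45.5%, against 6.86% of all genes in that direction). Ccr7, which takes mature dendritic and T cells to lymph nodes, was at 1.32, 1.901 and 1.25 CPM in HC tumours, against 10.4, 3.11 and 3.87 CPM in MI tumours, and at 4.02, 3.45 and 3.44 CPM in MC tumours (log2 difference -1.96 with an SE of 0.45). Clec9a, a marker of dendritic cells that cross-present antigen, was at 0.246, 0.177 and 0.0779 CPM in HC tumours, against 1.32, 1.14 and 0.751 CPM in MI tumours, and at 0.729, 0.479 and 1.54 CPM in MC tumours. HC was the low group in both, and without MI1 the difference was -1.22 for Ccr7. Clec9a stayed below 10 counts in every HC tumour, so it passed the count minimum only through MI tumours and its direction was fixed. Siglech, of plasmacytoid dendritic cells, was high in MI1, with 0.584, 0.406 and 0.0260 CPM in HC tumours, against 10.8, 0.559 and 1.16 CPM in MI tumours. Flt3, the growth-factor receptor of dendritic cells, was at 0.769, 0.507 and 0.468 CPM in HC tumours, against 4.80, 1.29 and 1.76 CPM in MI tumours. The log2 differences of -3.63 for Siglech and -2.17 for Flt3 were -1.34 and -1.39 without MI1. Clec10a, a lectin of dendritic cells and macrophages, had the opposite sign with overlapping groups, at 28.5, 3.75 and 6.94 CPM in HC tumours, against 5.51, 1.95 and 2.89 CPM in MI tumours (log2 difference 1.92). The summed level of the list also overlapped, at 169 to 248 CPM in HC tumours, against 211 to 282 CPM in MI tumours.

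The differences in B- and plasma-cell genes rested largely on MI1. The summed level of the 13 listed genes, untested ones included, was 6.10 to 16.9 CPM in HC tumours, against 5.91 CPM in the lowest MI tumour and 784 CPM in MI1. Mzb1, of antibody-secreting cells, was at 0.369, 0.583 and 0.390 CPM in HC tumours, against 43.6, 0.486 and 0.231 CPM in MI tumours. Cd79a, part of the B-cell receptor, was at 0.215, 0.355 and 0.0779 CPM in HC tumours, against 27.4, 0.243 and 0.116 CPM in MI tumours. Without MI1 their log2 differences turned to 0.31 and 0.25, and the median of the 7 tested genes, -5.03 with all libraries, was 0.25, with 4 of the 7 higher in HC. Cd79b, the partner of Cd79a, kept lower values in HC (-2.24 without MI1). Only 7 of the 13 members passed the count minimum. T-cell, dendritic and B-cell genes were thus highest together in MI1.

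MHC class II genes, which present antigen to helper T cells, had lower values in HC in all 10 (median -0.40), 5 of them apart (50%, against 6.86% of all genes in that direction). H2-Ab1 was at 302, 394 and 308 CPM in HC tumours, against 435, 478 and 423 CPM in MI tumours. H2-Aa was at 323, 399.9 and 349 CPM in HC tumours, against 434, 502 and 441 CPM in MI tumours. The gap was modest but complete in both, and MC tumours stood at 426, 424 and 494 CPM for H2-Ab1. Ciita, the master regulator of these genes, was at 45.8, 95.0 and 51.5 CPM in HC tumours, against 124, 119.8 and 92.1 CPM in MI tumours, with HC2 inside the MI range. H2-Ob, of B cells, followed MI1, with 0.123, 0.482 and 0.0260 CPM in HC tumours, against 10.1, 0.632 and 0.895 CPM in MI tumours (log2 difference -4.17, or -1.82 without MI1). The list's median stayed between -0.54 and -0.32 whichever library was left out.

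Mast cells, tissue cells that store histamine and proteases, had lower values in HC in all 9 tested genes (median -0.79). Of these, 7 were apart (77.8%, against 6.86% of all genes in that direction). Kit, the receptor that mast cells need, was at 10.8, 9.18 and 12.8 CPM in HC tumours, against 15.8, 13.2 and 14.8 CPM in MI tumours. Fcer1a, the IgE receptor chain, was at 0.0615, 0.127 and 0.520 CPM in HC tumours, against 0.661, 1.19 and 0.866 CPM in MI tumours. Ms4a2, the IgE receptor's beta chain, was at 0.0307, 0.152 and 0.0260 CPM in HC tumours, against 0.330, 0.462 and 1.30 CPM in MI tumours. Mrgprb1 was at 0.154, 0.0507 and 0.182 CPM in HC tumours, against 0.305, 0.681 and 0.924 CPM in MI tumours. These are low levels near the floor: Ms4a2 had 1, 6 and 1 counts in HC tumours and 13, 19 and 45 counts in MI tumours. Ms4a2 and Mrgprb1 stayed below 10 counts in every HC tumour, so they passed the count minimum only through MI tumours. Their direction was thus fixed by that filter, and both count among the 9 and the 7. The summed level of the list was 19.7 to 27.8 CPM in HC, 30.1 to 40.5 CPM in MI and 35.2 to 51.6 CPM in MC. All 9 genes stayed lower in HC whichever library was left out. For the 7 genes apart, among them Ms4a2 and Mrgprb1, that could hardly have come out otherwise.

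Neutrophils and the signals that attract them varied widely between HC mice. Of 18 neutrophil genes, 11 had higher values in HC (median 0.082, or -0.025 without HC3 and 0.40 without MI1) and 1 was apart (5.56%, against 15.9% of all genes). It was Mmp8, neutrophil collagenase, at 8.76, 11.9 and 32.9 CPM in HC tumours, against 8.54, 4.42 and 6.61 CPM in MI tumours. The score was -0.69, 0.66 and 0.82 in HC1 to HC3, against 0.75, 0.19 and -0.44 in MI1 to MI3, so the groups overlapped. S100a8, a calprotectin chain, was at 13.7, 49.1 and 75.3 CPM in HC tumours, against 32.9, 25.6 and 15.9 CPM in MI tumours. Of 16 inflammatory cytokines and chemokines, 10 had higher values in HC (median 0.20, or -0.20 without HC2 and 0.43 without HC1), and 2 were apart (12.5%, against 15.9% of all genes). Cxcl1, which recruits neutrophils, was at 19.5, 24.9 and 44.3 CPM in HC tumours, against 10.7, 12.6 and 13.3 CPM in MI tumours, and at 8.72, 9.14 and 8.62 CPM in MC tumours (log2 difference 1.28 with an SE of 0.33, adjusted p = 0.235; DESeq2 adjusted p = 0.0164). Nfkbia, the feedback inhibitor of NF-kappa B, was at 77.2, 106 and 103 CPM in HC tumours, against 76.4, 66.7 and 53.8 CPM in MI tumours, where MI1 fell just below the lowest HC tumour. Csf3, the growth factor for neutrophils (G-CSF), was at 42.0, 82.2 and 73.7 CPM in HC tumours, against 39.4, 47.8 and 36.8 CPM in MI tumours, with HC1 inside the MI range. Il6, interleukin 6, had the opposite sign with overlapping groups, at 0.830, 1.52 and 0.779 CPM in HC tumours, against 2.34, 0.875 and 2.63 CPM in MI tumours (log2 difference -0.89, adjusted p = 0.445).

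Macrophage genes were mixed. Of 16, 4 had higher and 12 lower values in HC, with a median of -0.055, or -0.13 without HC1 and 0.034 without HC3. Groups were apart in 1 with HC higher and 2 with HC lower (18.8% in all, near the 15.9% of all genes). Mrc1 (CD206), a scavenger receptor of tissue macrophages, was at 269.9, 217 and 236 CPM in HC tumours, against 185, 99.9 and 182 CPM in MI tumours, and at 126, 116 and 103 CPM in MC tumours. Mertk, which clears dying cells, was at 28.1, 14.8 and 20.9 CPM in HC tumours, against 18.0, 11.4 and 14.9 CPM in MI tumours, and at 8.89, 9.67 and 7.84 CPM in MC tumours. All HC tumours lay above MI tumours in Mrc1, whereas in Mertk HC2 lay inside the MI range and the log2 difference of 0.52 was 0.28 without HC1. Mrc1 and Mertk differed from MC by 1.07 and 1.27 in HC and by 0.44 and 0.75 in MI. Ccr2, the receptor of recruited monocytes, was at 59.2, 49.3 and 19.3 CPM in HC tumours, against 81.2, 49.96 and 103 CPM in MI tumours. Its difference had the opposite sign with overlapping groups (log2 difference -0.88, or -0.53 without HC3). Lyz2, lysozyme, was at 804, 604 and 422 CPM in HC tumours, against 878, 839 and 857 CPM in MI tumours.

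Genes of ferroptosis, cell death by iron-driven lipid oxidation, were described with iron handling. Slc7a11, the cystine importer that feeds glutathione synthesis, was at 14.0, 21.2 and 26.1 CPM in HC tumours, against 31.2, 51.3 and 76.9 CPM in MI tumours. All 3 HC tumours were below the MI tumours, and the MC tumours ranged widely, at 48.5, 27.1 and 76.6 CPM, with MC2 between the groups. HI tumours were at 46.4, 46.9 and 48.3 CPM, inside the MI range. The log2 difference was -1.38 with an SE of 0.38 (adjusted p = 0.236; DESeq2 adjusted p = 0.0193), with -1.31 from MC in HC and 0.064 from MC in MI. Gpx4, the enzyme that removes lipid peroxides, was at 236, 261 and 260.4 CPM in HC tumours, against 216, 253 and 224 CPM in MI tumours (log2 difference 0.13 with an SE of 0.10). Gch1, which makes the antioxidant tetrahydrobiopterin, was at 8.92, 9.61 and 9.77 CPM in HC tumours, against 12.0, 12.1 and 11.6 CPM in MI tumours, apart with HC lower. Acsl4, which supplies oxidizable lipids, and Nfe2l2 (NRF2), the antioxidant regulator, were highest in MI3 and overlapped (log2 differences -0.59 and -0.44). Of 18 genes, 8 were higher and 10 lower in HC, and 2 were apart (11.1%, against 15.9% of all genes).

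For iron, 13 of 21 genes had higher values in HC (median 0.072, or 0.042 without HC2 and 0.14 without MI2). Groups were apart in 5 with HC higher and 1 with HC lower (28.6% in all, against 15.9% of all genes). Tfrc, the transferrin receptor that takes up iron, was at 140.0, 144 and 143 CPM in HC tumours, against 75.4, 103 and 134 CPM in MI tumours (log2 difference 0.45 with an SE of 0.30, adjusted p = 0.458). Slc40a1, ferroportin, the iron exporter, was at 4.06, 4.06 and 4.29 CPM in HC tumours, against 7.07, 6.39 and 8.55 CPM in MI tumours, apart with HC lower. Steap1 and Slc39a14 were apart with HC higher. Steap1, a member of the STEAP family, was at 18.5, 21.4 and 16.4 CPM in HC tumours, against 13.4, 12.4 and 11.4 CPM in MI tumours. Slc39a14, a transporter of zinc and iron, was at 194, 173 and 196 CPM in HC tumours, against 161, 150.2 and 136 CPM in MI tumours. Ireb2, an iron-sensing regulator of RNA, was highest in MI3, at 105, 106 and 117 CPM in HC tumours, against 143, 105 and 265 CPM in MI tumours. Of 17 NRF2 target genes, 12 had higher values in HC (median 0.069, or 0.046 without HC2 and 0.11 without HC1), with 3 apart (17.6%, against 15.9% of all genes), among them Txn1 (thioredoxin) and Sod1 (superoxide dismutase), at differences of 0.19 and 0.18.

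Tumour-cell genes had slightly higher values in HC. Of 15 epithelial genes, 14 were higher (median 0.17, or 0.15 without HC3 and 0.27 without HC2), 3 apart with HC higher (20%, against 9.08% of all genes in that direction). Krt8, a keratin of simple epithelium, was at 1244, 1287 and 1276 CPM in HC tumours, against 954, 1102 and 899 CPM in MI tumours. Its partner Krt18 was at 1245, 1286 and 1408 CPM in HC tumours, against 985, 1191 and 1017 CPM in MI tumours. HC tumours lay above MI tumours in both, and DESeq2 called Krt8 (adjusted p = 0.00361). Ovol1, a transcription factor that holds the epithelial state, was at 1.51, 1.749 and 1.64 CPM in HC tumours, against 0.559, 1.17 and 0.693 CPM in MI tumours. Of 9 genes of the mesenchymal state, 7 had lower values in HC (median -0.29, or -0.34 without MI2 and -0.089 without MI3). Snai2 (Slug) was at 2.55, 2.56 and 2.08 CPM in HC tumours, against 6.07, 2.65 and 7.11 CPM in MI tumours, with MI2 just above the HC tumours. Snai1 (Snail) was at 42.1, 38.8 and 46.6 CPM in HC tumours, against 38.0, 38.2 and 35.3 CPM in MI tumours, apart with HC higher. The list score was -0.033, -0.026 and 0.0045 in HC1 to HC3, against 0.34, -0.11 and 0.46 in MI1 to MI3, so MI2 lay below all HC tumours and MI1 and MI3 above them.

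Matrix genes pointed both ways. Of 19 collagen genes, 12 had higher values in HC, with a median near 0 (0.016, or -0.096 without HC1 and 0.18 without HC3). Col18a1, the source of the vessel inhibitor endostatin, was at 458, 450.2 and 430.3 CPM in HC tumours, against 292, 341 and 268 CPM in MI tumours (log2 difference 0.57 with an SE of 0.12, adjusted p = 0.213; DESeq2 adjusted p = 0.00283). Col7a1, which anchors epithelium, was at 263, 236 and 233 CPM in HC tumours, against 204, 166 and 183 CPM in MI tumours, also apart. Col15a1 and Col8a1, collagens found around vessels, had lower values in HC with overlapping groups. Col15a1 was at 132, 169 and 96.6 CPM in HC tumours, against 202, 162 and 181 CPM in MI tumours (log2 difference -0.45). Col8a1 was at 285, 316 and 266 CPM in HC tumours, against 500.2, 262 and 522 CPM in MI tumours (log2 difference -0.57). Of 12 basement-membrane genes, 8 had higher values in HC (median 0.082), 3 apart with HC higher (25%, against 9.08% of all genes in that direction). Lama3 and Lamb3, chains of the epithelial laminin 332, were apart with HC higher. Lama3 was at 190.1, 164 and 181 CPM in HC tumours, against 116, 88.3 and 97.1 CPM in MI tumours. Lamb3 was at 167, 151 and 177 CPM in HC tumours, against 115, 86.8 and 90.5 CPM in MI tumours. Lama4, a laminin chain of vessels, overlapped with the opposite sign (-0.23). Of 12 fibroblast genes, 8 had lower values in HC (median -0.15, or -0.35 without HC1 and -0.076 without MI1), with none apart. Lum, lumican, was at 50.9, 30.6 and 40.2 CPM in HC tumours, against 69.7, 31.7 and 189.7 CPM in MI tumours, with MI3 far above the rest.

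Genes of fat, muscle and skin, tissues that lie next to a subcutaneous tumour, were uneven between libraries. All 14 tested fat-cell genes had higher values in HC (median 1.46). Only Pnpla2, a lipase also found outside fat, was apart (7.14%, against 9.08% of all genes in that direction). Fabp4, the fatty-acid carrier of fat cells and of capillary endothelium, was at 269, 147 and 42.5 CPM in HC tumours, against 64.5, 33.9 and 37.8 CPM in MI tumours, so HC1 and HC2 were high and HC3 was within the MI range. The fat score was 2.17, 1.72 and -0.96 in HC1 to HC3 against 0.61, -0.34 and -0.54 in MI1 to MI3, and the median ran from 1.02 without HC1 to 2.07 without MI1. The summed level of the 16 listed genes, untested ones included, was 235 to 1117 CPM in HC, 278 to 507 CPM in MI and 186 to 249.99 CPM in MC tumours. Lep, leptin, was at 4.27, 0.685 and 0.234 CPM in HC tumours, against 0.127, 0.267 and 0.0578 CPM in MI tumours. Skeletal-muscle genes followed single tumours of either group: Myh4, a fast myosin, was at 19.5, 5.76 and 0.701 CPM in HC tumours, against 65.8, 0.511 and 11.1 CPM in MI tumours, and the list's median, -0.53, ran from -1.68 without HC1 to 0.91 without MI1. Of 12 skin genes only 4 passed the count minimum, all with higher values in HC. Krt5, a basal keratin, had 16, 165 and 385 counts in HC tumours and 9, 0 and 1 counts in MI tumours. Krt5 thus passed the count minimum only through HC tumours, and its direction was fixed by that filter. The part of these tissues in the other differences was not tested.

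**Figure D5:**
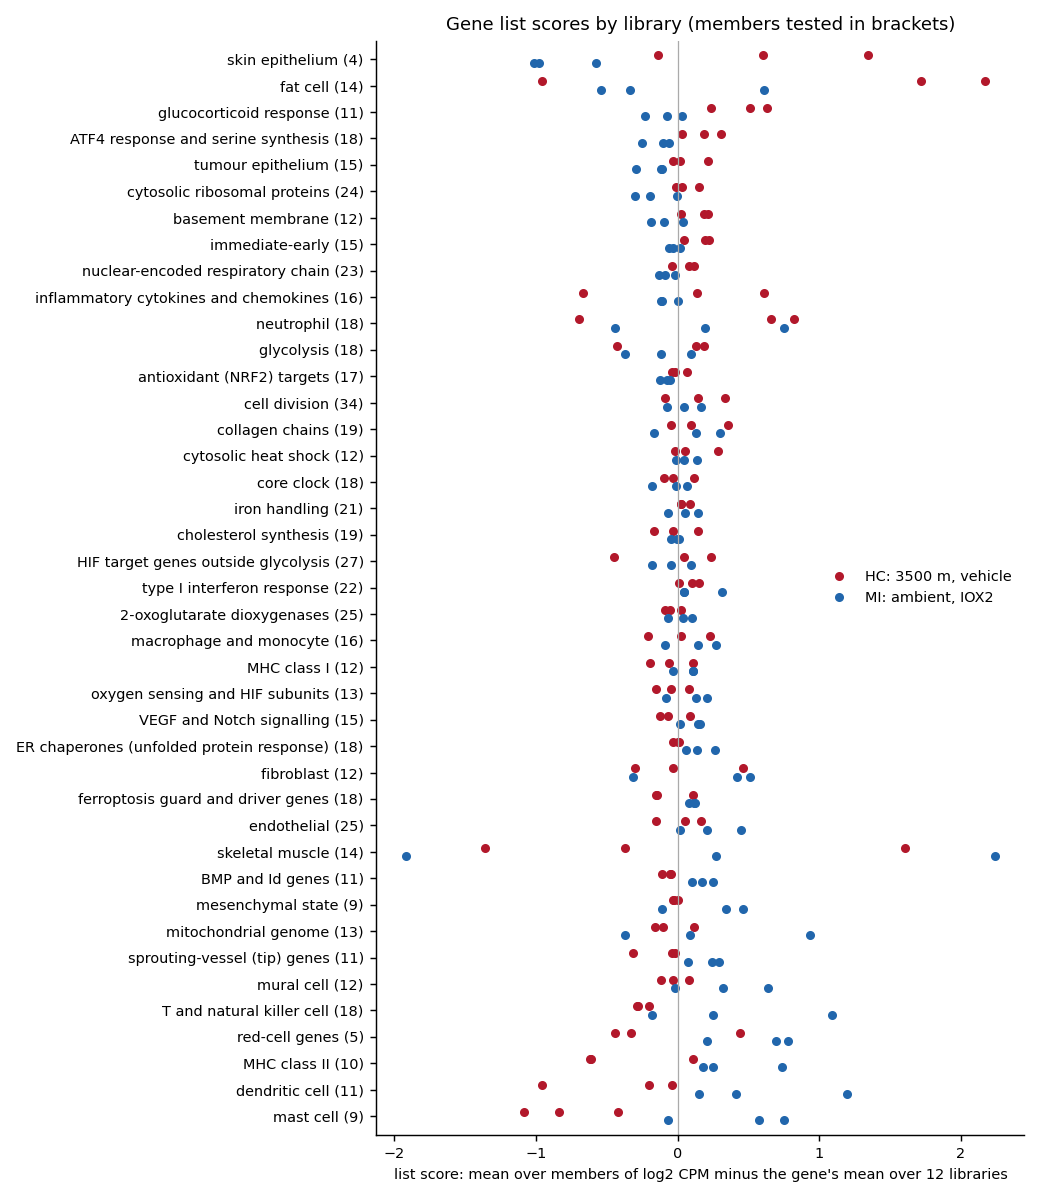
Score of each gene list (mean over its tested members of log2 CPM minus the gene's mean over 12 libraries) in the 3 HC tumours and the 3 MI tumours, with the number of members in brackets. The lists run from those most above MI in HC at the top to those most below at the bottom, and the B- and plasma-cell list is left out because MI1, at 6.02, would lie off the scale. Glucocorticoid and ATF4 genes sit higher in all 3 HC tumours, mast-cell genes sit lower in all 3, and fat and muscle genes scatter with single tumours.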

How the data were processed

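RNA of 12 tumours was read as paired ends by the authors. Mouse build GRCm39 and a set of tools are named, per the submitters' processing notes, without the role of each: R 3.5.1, DESeq2 1.22.2, HTSeq 0.11.2, HISAT2 2.1.0 and fastp 0.20.1. Neither annotation nor strandedness is stated in the sources used here, so reads of overlapping antisense genes cannot be told apart. The deposited table of raw counts per gene was tested, and the deposited FPKM values (fragments scaled by gene length and library total, by the authors) were used for marker levels and as an alternative.

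Counts were fitted with edgeR 4.0.16 (R 4.3.3) using TMM factors, all 12 libraries, 1 mean per group and a shared spread, the contrast HC minus MI, a quasi-likelihood test and Benjamini-Hochberg adjustment over the 14830 genes with at least 10 counts in 3 of the 6 libraries. An adjusted p under 0.05 counted as a call. HC minus MC and MI minus MC come from the same fit and share the MC libraries. The code was tested on simulated data. DESeq2 1.42.0 and limma 3.58.1 (voom, and on log2 FPKM plus 0.1 or 1) were alternatives, as were other filters and scalings, the 6 libraries alone, a replicate block and leaving out each library.

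The 42 lists hold 694 genes, of which 661 were tested. The lists and the choice of comparison were made with earlier results of these data known. Tmlhe and Tpsab1 are not analysed here, and some listed genes are not reported by name. Named genes are Egln1, Egln2, Egln3, Hif1a, Epas1, Vhl, Vegfa, Car9, Slc7a11, Gpx4 and Tfrc, up to 4 members with the smallest p of each list described, and, since edgeR called no gene, the 10 with the smallest p in each direction whose groups did not overlap and whose mean was at least 5 CPM in the higher group, without predicted genes, pseudogenes or receptor segments. Ms4a1, Clec10a, the untested erythroblast genes and genes named only to give a list's content were chosen after their values were seen. Replicates are separate mice. No 2 libraries held identical values.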

Additional observations from a re-analysis of the deposited data

How the results depend on the processing

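The count of calls, 0 in edgeR, was 0 under 8 of the 9 other fits and filters, with 304 by DESeq2, and 0 to 407 as single libraries were left out, the 407 being without MI2. DESeq2 and the fit without MI2 shared 129 genes. Of the 20 leading genes, DESeq2 called 20 and the fit without MI2 called 19 (not Ccnd2). None of their differences turned under the 21 alternatives. These genes were chosen for small p and groups apart in the same counts. Neither their calls nor their unturned signs are therefore independent support. Over 191 named genes, 19 of 4011 log2 differences turned, in 11 genes. With single libraries left out, the differences ran from -0.090 to 0.16 for Egln1, -0.11 to 0.029 for Egln2, -0.091 to 0.33 for Epas1, -0.066 to 0.061 for Vhl, -0.41 to 0.059 for Kdm5a, -0.022 to 0.38 for Krt15, -5.98 to 0.25 for Cd79a, -5.61 to 0.31 for Mzb1, -2.15 to 0.84 for Myh1, -1.84 to 0.34 for Myh2 and -3.00 to 0.57 for Myh4. Egln1 was -0.0054 by limma-voom, and Vhl was 0.0075 and 0.0062 on log2 FPKM plus 0.1 and plus 1. The cause was not tested. Of 882 list medians under the alternatives, 17 moved by more than 1 SD between replicates. With the replicate number as a block, 0 genes were called (2124 at an unadjusted p under 0.05; lowest adjusted p 0.165). Same-numbered HC and MI tumours correlated at 0.295, -0.058 and 0.136 in their deviations from the group means, and HC3 correlated best with MI2 (0.324), so the numbers were not taken to pair the mice. Depth limits genes with few counts, such as Ms4a2, which had 1, 6 and 1 counts in HC tumours, against 13, 19 and 45 counts in MI tumours.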

Other observations

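Chaperones of the endoplasmic reticulum, which fold secreted proteins and rise in the unfolded protein response, had lower values in HC in 15 of 18 genes, with a median log2 difference of -0.11 (-0.14 without MI3, and -0.014 without MI1) and 3 apart (16.7%, against 15.9% of all genes). Dnajb9, a co-chaperone of that response, was at 41.8, 46.9 and 55.4 CPM in HC tumours, against 77.8, 52.4 and 131 CPM in MI tumours. MI3 was highest and MI2 lay inside the HC range (adjusted p = 0.261). Dnajc3, which restrains the PERK kinase, was at 128, 141 and 128 CPM in HC tumours, against 178, 148 and 243 CPM in MI tumours, without overlap. Sdf2l1 and Sel1l, of folding and of degradation in that compartment, overlapped, with differences of -0.41 and -0.17. Cytosolic heat-shock genes were even, 6 higher and 6 lower in HC. Dnaja1, an HSP70 co-chaperone, was apart with HC lower (-0.23), and Hspa8, a housekeeping chaperone, was at 1992, 1946 and 2237 CPM in HC tumours, against 1555, 1975 and 1675 CPM in MI tumours.

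Interferon-response genes were close to even, with 10 higher and 12 lower in HC and a median of -0.026, or -0.062 without HC3 and 0.059 without MI1. Ifit2, an antiviral effector, was at 53.2, 64.8 and 61.3 CPM in HC tumours, against 102, 56.9 and 109 CPM in MI tumours. Of 12 genes of MHC class I, 10 had lower values in HC (median -0.11, or -0.22 without HC2 and -0.015 without HC1), and the single gene apart was Nlrc5, their transcriptional activator, at 111, 128 and 114 CPM in HC tumours, against 133, 157 and 129 CPM in MI tumours. Cholesterol synthesis split 10 to 9 (median 0.0084, or -0.12 without HC2 and 0.078 without HC3) with none apart, and Dhcr7, its last enzyme, was at 43.4, 33.9 and 41.3 CPM in HC tumours, against 29.7, 34.7 and 30.8 CPM in MI tumours.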
